A study of Mus musculus with 8 samples.

Results

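Buccal mucosa, the lining of the inner cheek, was profiled from section 1 to section 20 in 2 wild-type C57BL/6J mouse samples, and expression in sections 1 to 5 was compared with that in sections 16 to 20 within each sample. In this assay (tomo-seq) a tissue block is cut into consecutive slices and each slice gets its own RNA library, so a gene can be followed along the cutting axis. Each section was 14 µm thick and each sample had 20 sections, 280 µm in all. All 40 buccal sections held at least 10000 distinct molecules and were kept, out of 159 sections kept over the 8 samples of the series. The other 6 samples were dorsal tongue, hard palate and ventral tongue, with 2 replicates each, from wild-type C57BL/6J mice too. The labels give no age, treatment or sex and do not state whether replicates came from separate mice. Sex-linked transcripts, given below, were opposite in the 2 replicates of each site, so these came from different mice that also differed in sex. How many mice were used is not known. The p-values therefore describe how far these particular samples scatter, and part of that scatter could be technical.

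Oral mucosa is a stratified squamous epithelium on a connective tissue layer, the lamina propria. Basal keratinocytes divide and carry the keratins Krt5 and Krt14. Cells that leave the basal layer switch to Krt4 and Krt13 in lining mucosa such as the cheek, or to Krt1 and Krt10 where the surface keratinises, and finally build a cornified envelope of cross-linked proteins. Below the lamina propria the cheek holds muscle, fat, vessels, nerves and small salivary glands, and its outer face is haired skin. The section number is used here as the position along the block. The labels do not say which face section 1 was cut from.

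The number of distinct molecules, counted as UMIs (unique molecular identifiers), was 16878956 in replicate 1 and 7830471 in replicate 2. Sections of replicate 1 held 22343 to 1874699 UMIs, and 3 of them (4, 19 and 20) held under 100000. Sections of replicate 2 held 129245 to 865869. Levels are given as CPM, the UMIs of a gene scaled to a common section total. The UMI is a short barcode with a limited number of variants, which caps the UMIs of a gene in a section, so CPM of the most abundant genes is compressed in deep sections and high in shallow ones. RPM, the reads of a gene scaled in the same way, has no such ceiling and is used for the most abundant genes and lists where their course along the sections is described. The mitochondrial share of UMIs per section was 1.69% to 13.6% in replicate 1 and 4.30% to 13.3% in replicate 2, with the highest shares in section 20 of both.

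**Figure D1:**
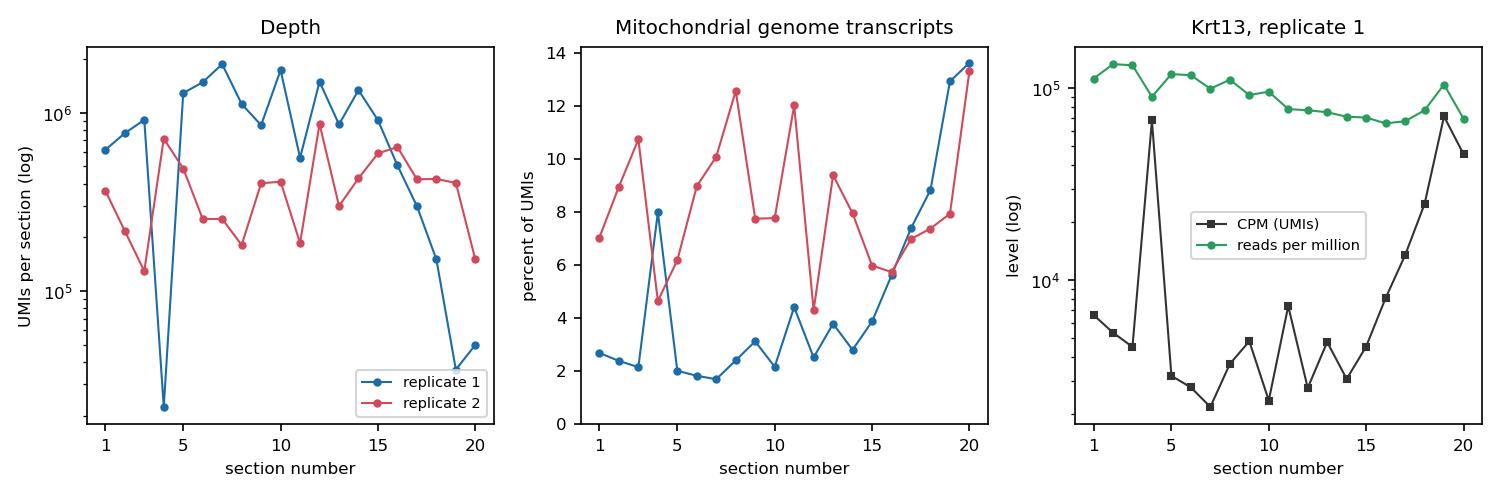
UMIs per section on a log axis, percent of UMIs from the mitochondrial genome, and Krt13 in replicate 1 as CPM and as RPM on a log axis, each against section number. Sections 4, 19 and 20 of replicate 1 lie below 100000 UMIs, and there the CPM of Krt13 jumps while its RPM does not.

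The 2 samples labelled buccal mucosa held different tissue components, and this precedes every comparison below. Replicate 1 carried the keratins of oral lining epithelium at high levels. Its RPM of Krt13, the keratin of suprabasal cells in lining mucosa, ran from 65660 to 133700 over the 20 sections. Replicate 2 had 6.59 to 152 RPM of Krt13 and at most 49 of its UMIs in any section. Summed over the sample, the 20 genes of the oral suprabasal keratinocyte list reached 30440 CPM in replicate 1 and 642 CPM in replicate 2, against 28730 to 39460 CPM in the 6 samples of the other sites. The label of replicate 2 therefore did not match the defining markers of oral epithelium. In place of them it carried salivary gland, muscle, fat and hair follicle transcripts.

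Salivary gland transcripts were present through the whole of replicate 2. The 24 genes of the salivary acinus list summed to 57720 to 119800 RPM in its sections and to 87.0 to 491 RPM in those of replicate 1. Bpifa2, a protein secreted by salivary glands, ranged from 3787 RPM (section 14) to 17030 RPM (section 3) in replicate 2, and replicate 1 had 126 UMIs of it in total. Muc19 and Muc5b, mucins of salivary secretion, had 23230 and 59743 UMIs in replicate 2 and 11 and 39 in replicate 1. Adipocyte genes summed to 8699 CPM over replicate 2 and 1509 CPM over replicate 1. Adipoq, a hormone made by fat cells, had 2876 UMIs in replicate 2 and 12 in replicate 1.

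Transcripts of X and Y genes also separated the 2 samples. Replicate 1 held 2801 UMIs of Xist, the RNA of the inactive X chromosome, and 1 UMI of the Y-linked gene Kdm5d. Replicate 2 held 4 and 72. Of the Y-linked genes Ddx3y, Uty and Eif2s3y, replicate 1 held 54, 12 and 9 UMIs and replicate 2 held 508, 140 and 343. The tissue of the 2 samples thus carried opposite sex-linked transcripts, and any difference between them cannot be told apart from sex or from the animal. The replicates of the other sites were opposite too. In replicates 1 and 2, Xist had 4190 and 36 UMIs in dorsal tongue, 2360 and 45 in ventral tongue and 4 and 8925 in hard palate. Ddx3y had 37 and 1563, 33 and 2124, and 2524 and 34 in the same order.

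Hair follicle and sebaceous gland transcripts marked the first sections of replicate 2. Their summed level went from 3550 CPM in section 1 to 842.5 in section 5, 412 in section 10 and 79.8 in section 20. Krt71, a keratin of the inner root sheath of the hair, had 411, 231, 92.9, 26.6 and 0 CPM in sections 1 to 5 of replicate 2 and no UMI in replicate 1. Elovl3, a fatty acid elongase of sebaceous glands, had 559, 604, 449, 313 and 203 CPM in those sections, and 0 to 2.48 CPM in sections 16 to 20. It had no UMI in replicate 1, which allows up to 0.178 CPM there for counting error. The same list stayed between 96.8 and 313 CPM in replicate 1. Krt1 and Krt10, which mark keratinising epidermis as well as keratinising oral mucosa, had 6 and 109 UMIs in all of replicate 2.

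**Figure D2:**
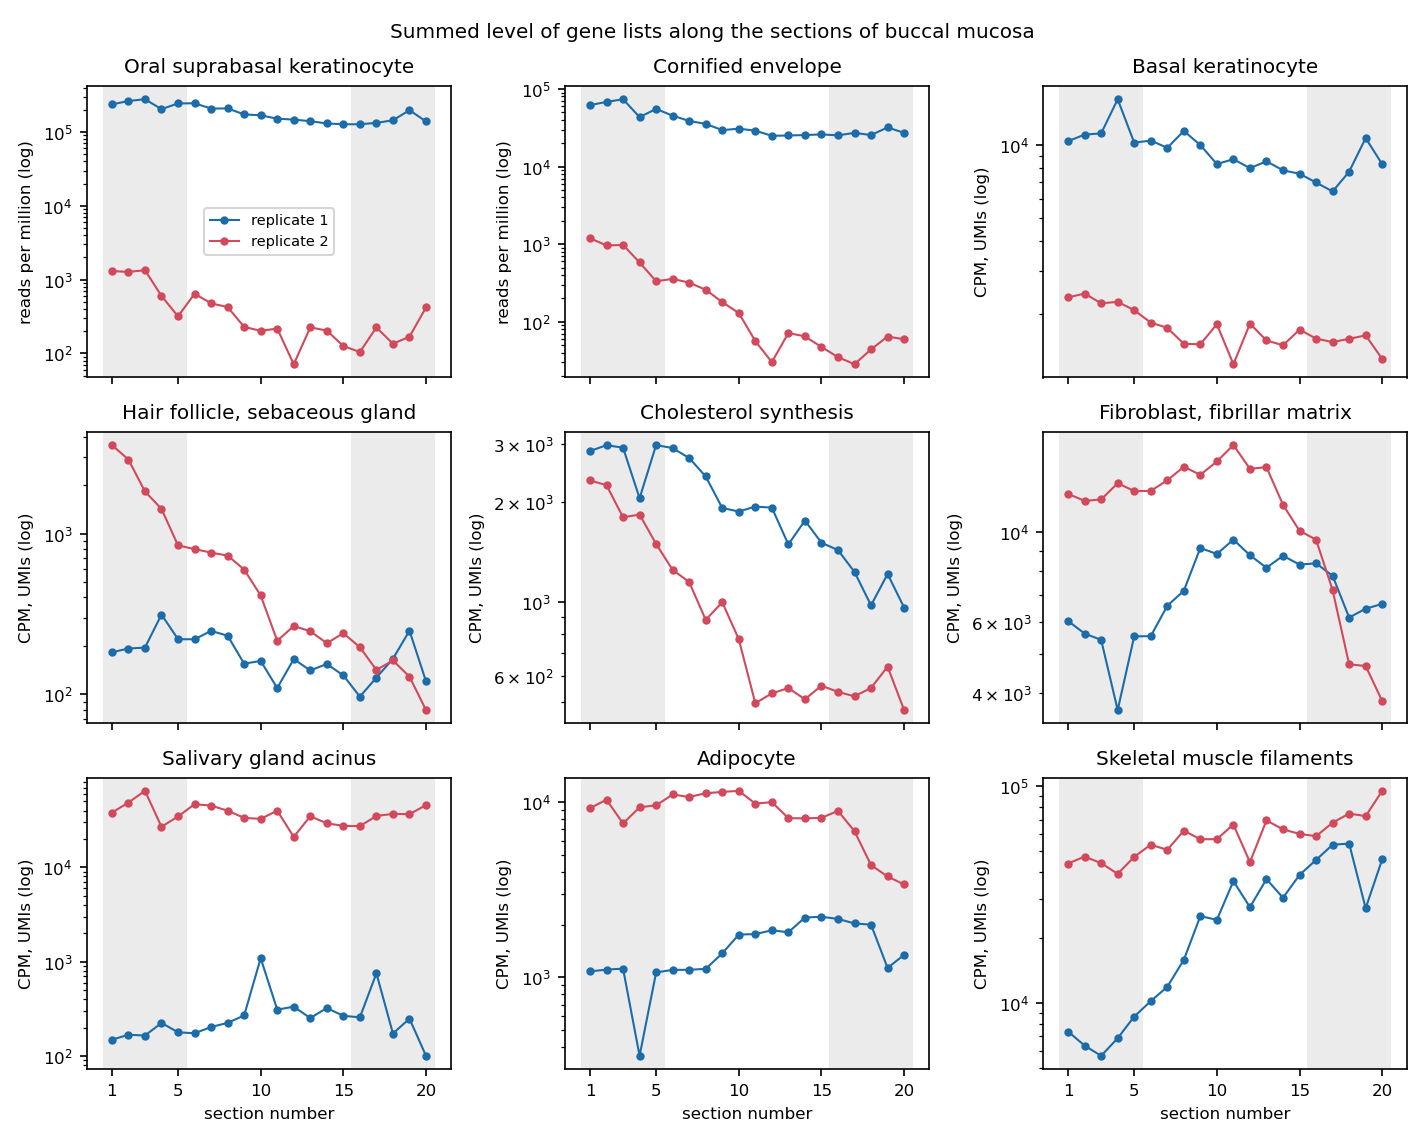
Summed level of 9 gene lists in each section, on log axes, for replicate 1 (blue) and replicate 2 (red). The top left and top middle panels are RPM and the others CPM. The salivary gland and muscle panels include genes near the UMI ceiling, so their CPM also follows section depth. From section 3 to section 4 of replicate 2 the salivary list went from 64680 to 26880 CPM, but from 109500 to 112300 RPM. Shading marks sections 1 to 5 and 16 to 20. Keratinocyte lists are far higher in replicate 1, salivary gland and adipocyte lists in replicate 2, and the hair list of replicate 2 drops from 3550 to 79.8 CPM.

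In replicate 1 the keratins of keratinising epithelium were unevenly spread along the block. Krt10 had 4607, 3656, 3199, 1787 and 5253 RPM in sections 1 to 5, then 1448 in section 8, 248.8 in section 9, 38 in section 14 and 366, 907 and 580 in sections 18 to 20. Krt76, a keratin of keratinising oral mucosa, had 5183 to 12350 RPM in sections 1 to 5, 90.1 in section 13 and 1799, 5466 and 3624 in sections 18 to 20. Krt10 and Krt76 were thus lower in the middle of this block than at either end, and the far end was below the first sections on average (410 against 3701 RPM and 2415 against 8187 RPM over the zones). Krt1 had 380 to 791 CPM in sections 1 to 8 other than section 4, which had 44.8, then 5.81 to 66.9 in sections 9 to 17, 232.8 in section 18, 27.6 in section 19 and 0 in section 20. The last 3 sections are also the ones of lowest depth after section 4, at 36196 to 150338 UMIs. Krt13 in RPM had its highest values in sections 2 and 3 (133700 and 131900) and 69560 in section 20.

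Muscle genes climbed along replicate 1 over the same interval. The 31 genes of the thin and thick filament list summed to 6101 RPM in section 1, 8458 in section 6, 38120 in section 10 and 62030 in section 18. In replicate 2 they were at 54960 RPM in section 1 and 118300 in section 20. The muscle level of replicate 2 thus began about where that of replicate 1 ended.

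Adjacent sections resembled each other. Over the genes with a mean of at least 20 CPM, the mean Spearman correlation of neighbours was 0.861 in replicate 1 (7081 genes) and 0.860 in replicate 2 (7058 genes), against 0.777 and 0.816 over all pairs of sections.

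The first comparison asked which genes differed between sections 1 to 5 and sections 16 to 20 in both samples. The difference is given as a log2 ratio of the zone means of CPM with 5 CPM added, which understates the change of low genes. A gene counted as measured when it reached 10 CPM in either zone of each sample, as 8817 of 26492 entries did. Such a minimum favours genes that differ between zones, so the counts describe the measured genes and no others. Of them 130 (1.47%) were at least 2-fold higher in sections 1 to 5 of both samples and 155 (1.76%) at least 2-fold lower. In single samples the shares were 12% higher and 10.5% lower in replicate 1, and 5.72% and 2.12% in replicate 2. At any size, 44.3% were higher in both, 20.4% lower in both and 35.3% went opposite ways. The median log2 ratio over all measured genes was 0.25 in replicate 1 and 0.14 in replicate 2, and values below should be read against those medians. Across genes the log2 ratios of the 2 samples had a Pearson r of 0.377, or 0.430 without the 3 shallow sections. Genes are not independent replicates.

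By section number, 584 measured genes (6.62%) had a Spearman rho of at most -0.5 in both samples, which means a level that goes down along the block. In single samples the shares were 26.3% and 14.8%. A rho of at least 0.5 was found for 454 genes (5.15%) in both, and for 11.1% and 10.4% in replicates 1 and 2. Opposite trends of that size were found for 95 genes (1.08%), 48 (0.544%) of them going down in replicate 1 and 47 (0.533%) in replicate 2. Correlations over the sections of a block are a description, because the sections share the block and their depths differ.

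**Figure D3:**
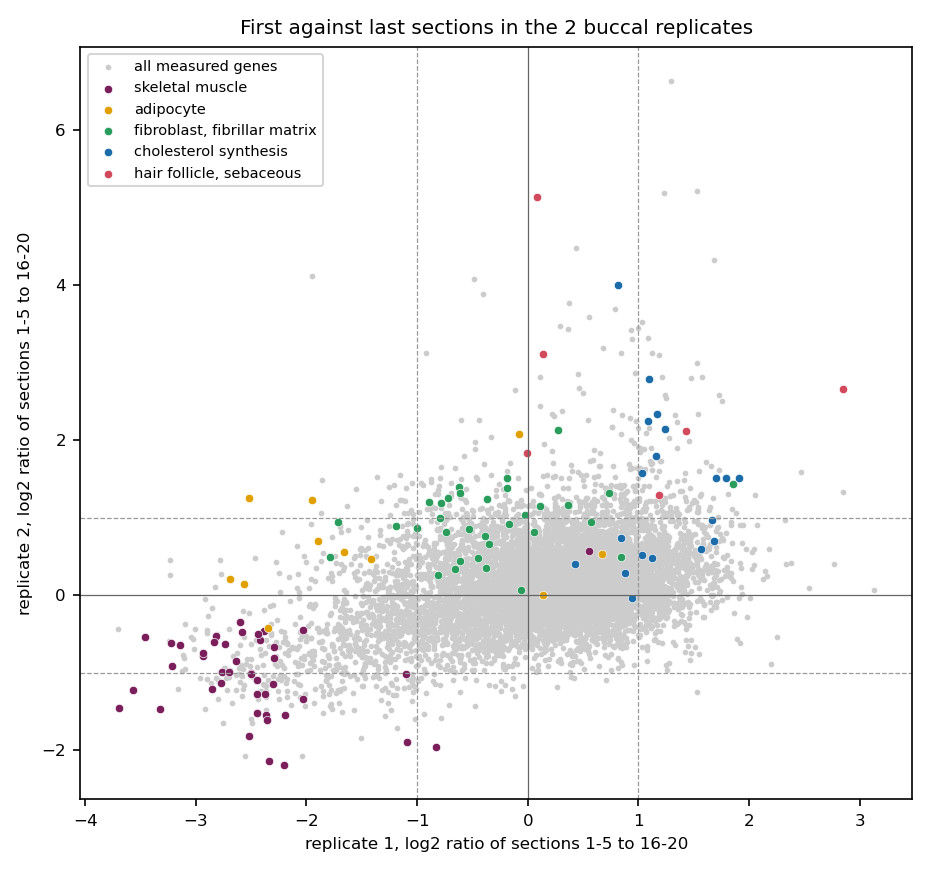
Log2 ratio of sections 1 to 5 to sections 16 to 20 in replicate 1 (horizontal) and replicate 2 (vertical) for the 8817 measured genes, with 5 gene lists in colour. Dashed lines mark 2-fold. Skeletal muscle genes lie at the lower left but for 1, cholesterol synthesis genes mostly at the upper right, and fibroblast and adipocyte genes mostly at the upper left.

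The test took the UMIs summed over each zone of each of the 8 samples and asked for the zone effect in buccal mucosa, with the spread estimated over the 4 sites (edgeR quasi-likelihood F-test, Benjamini-Hochberg adjustment). Of 15803 genes tested, 27 rose toward sections 1 to 5 (0.171%) and 15 fell (0.0949%). With the size factors of another scaling (RLE) the split was 53 and 70. All 42 adjusted p-values lay between 0.0408 and 0.0485, just inside the threshold of 0.05. Both samples had the tested direction in 25 of the 27 genes that rose and in all 15 that fell. A 2-fold ratio in both was found for 14 of the 27 and 8 of the 15. Of the 27, 7 had under 20 UMIs in replicate 2 and 3 had under 50 in replicate 1. The exceptions were Fa2h, which was slightly lower in sections 1 to 5 of replicate 1, and Scgb1a1, which had 4 UMIs in all of replicate 2. Counts of calls depended on which samples entered: leaving out replicate 2 gave 490 higher and 803 lower, leaving out replicate 1 gave 98 and 9, and the 2 buccal samples alone gave 0 and 0. Leaving out the mitochondrial transcripts gave 1 and 0, which ended the calls on the genes described below. Leaving out hard palate replicate 1 or 2 gave 4 or 3 higher and 0 lower, with 1 of the 27 among them each time. Leaving out either dorsal tongue sample gave 0 and 0, and either ventral tongue sample 281 to 368 higher and 385 to 399 lower.

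Genes of cholesterol synthesis were higher in sections 1 to 5 of both samples. The pathway builds cholesterol from acetyl-CoA through mevalonate and squalene, and serves membranes, the lipid barrier of keratinising epithelia and sebum. This list of 20 genes was drawn up after the pattern had been seen, so its count is no independent evidence. In replicate 1 the log2 ratio was above 0 for 20 of 20 genes (median 1.14) and in replicate 2 for 19 of 20 (median 1.24). Over all measured genes, 5499 and 5425 of 8817 were above 0, with medians of 0.25 and 0.14. Of the list, 19 genes were measured, with medians of 1.13 and 1.51. The exception was Sc5d at -0.04 in replicate 2. The summed level ran from 2858 CPM in section 1 of replicate 1 to 963 in section 20, and from 2331 to 472 CPM in replicate 2. Hair and sebaceous transcripts moved along the same sections in replicate 2, and keratinocyte transcripts in replicate 1. Their part in this result was not tested.

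Hmgcs1, the synthase that makes HMG-CoA at the entry to the pathway, lies at chr13:119690379-119708260 on the plus strand (GRCm38). In replicate 1 it had 292, 281, 353, 224 and 329 CPM in sections 1 to 5 and 120.5, 130.3, 99.8, 27.6 and 60.2 CPM in sections 16 to 20. In replicate 2 it had 301, 276.5, 209, 239 and 177 CPM in sections 1 to 5 and 70.1, 75.6, 94.1, 91.6 and 73.2 CPM in sections 16 to 20. The zones did not overlap in either sample. Hmgcs1 rose by 1.37 ± 0.19 (log2, SE; edgeR adjusted p = 0.0485).

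Further steps of the pathway passed the same test. Acat2, which makes acetoacetyl-CoA, rose by 1.89 ± 0.23 (adjusted p = 0.0408, edgeR). Sqle, the squalene epoxidase, rose by 1.65 ± 0.24 and Cyp51, the sterol 14-demethylase, by 1.54 ± 0.23 (edgeR adjusted p = 0.0485 for both). Sqle went from 168 to 41.1 CPM between the zones of replicate 1 and from 46.9 to 13.2 CPM in replicate 2. Of the 20 genes of the list 4 thus passed, where 0.171% of all tested genes rose. The other 16 genes of the list did not pass. Among these, Dhcr7, the last enzyme of one branch, had log2 ratios of 1.79 and 1.51 in replicates 1 and 2 (adjusted p = 0.0521).

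The region before the start of Hmgcs1 is shown because it holds the letters TCACNCCAC, a form of the sterol regulatory element, which the factor SREBP binds. Of 15 genes of the list with a promoter in the RefSeq table (GRCm38.p6), 1 held these letters on either strand between 250 bases before and 50 after the start, as did 1.44% of all 27025 genes. This motif was added after the values were seen. The 250 bases before the start of Ecm1, another gene with matching ratios in both samples, hold the letters TATAAA, known as the TATA box and found in 15.7% of all genes. They also hold TGANTCA, the motif of AP-1 factors, which was found in 8.97% of all genes. Capitals mark the motifs, and a match of letters is not evidence of binding.
Hmgcs1, chr13:119690101-119690350, plus strand: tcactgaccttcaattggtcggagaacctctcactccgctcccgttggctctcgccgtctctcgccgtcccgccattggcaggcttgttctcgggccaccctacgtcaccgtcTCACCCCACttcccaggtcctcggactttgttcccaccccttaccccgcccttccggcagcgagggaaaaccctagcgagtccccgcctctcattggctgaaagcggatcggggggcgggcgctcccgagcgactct
Ecm1, chr3:95739570-95739819, minus strand: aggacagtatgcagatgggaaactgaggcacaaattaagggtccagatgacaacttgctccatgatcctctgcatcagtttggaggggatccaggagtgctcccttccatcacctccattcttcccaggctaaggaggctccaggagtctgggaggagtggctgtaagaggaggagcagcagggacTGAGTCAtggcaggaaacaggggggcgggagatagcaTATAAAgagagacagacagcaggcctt

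Genes of fatty acid synthesis and elongation were likewise mostly higher in sections 1 to 5, in 18 of 22 genes of the list in replicate 1 (median log2 ratio 0.75) and 21 of 22 in replicate 2 (median 1.19). This list was also drawn up after the values were seen. Hsd17b12, a reductase of the elongation cycle, rose by 1.45 ± 0.19 (edgeR adjusted p = 0.0485), from 64.0 to 171 CPM in replicate 1 and from 47.4 to 190 CPM in replicate 2 between sections 16 to 20 and 1 to 5. Fasn, the fatty acid synthase, had log2 ratios of 1.46 and 1.38 and an adjusted p of 0.0600. Elovl4, which makes the very long chains of barrier lipids, was at 855 against 345 CPM in replicate 1 and at 695 against 2.08 CPM in replicate 2, with an adjusted p of 0.121. Fa2h, a fatty acid hydroxylase, and Cers4, a ceramide synthase, passed the test at 4.15 ± 0.66 and 3.02 ± 0.47. Of 21 tested genes of the list 3 thus passed, where 0.171% of all tested genes rose. Fa2h had 29 UMIs in all of replicate 1, so its value rested on replicate 2. Without that sample it was -1.89 (adjusted p = 0.523).

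Among single genes with matching ratios and trends, the rule named 8 that were higher in sections 1 to 5, and 3 of them, Hmgcs1, Hsd17b12 and Tmem45a, passed the test. Sdr16c6, a retinol dehydrogenase family member at chr4:4055929-4077522, had the largest ratio in replicate 2. It went from 228 to 75.7 CPM in replicate 1. In replicate 2 it went from 180 CPM in sections 1 to 5 to no UMI from section 11 on, at least 117-fold higher by pooled UMIs against a limit of 3 UMIs over sections 16 to 20. The edgeR value for it was 2.69 ± 0.89 with an adjusted p of 0.126. Cbr2, a carbonyl reductase, had log2 ratios of 1.41 and 1.49, and Ecm1, a secreted matrix protein of epithelia, 1.39 and 1.35. Tmem45a, a membrane protein of keratinising cells, rose by 1.58 ± 0.25 (edgeR adjusted p = 0.0485).

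**Figure D4:**
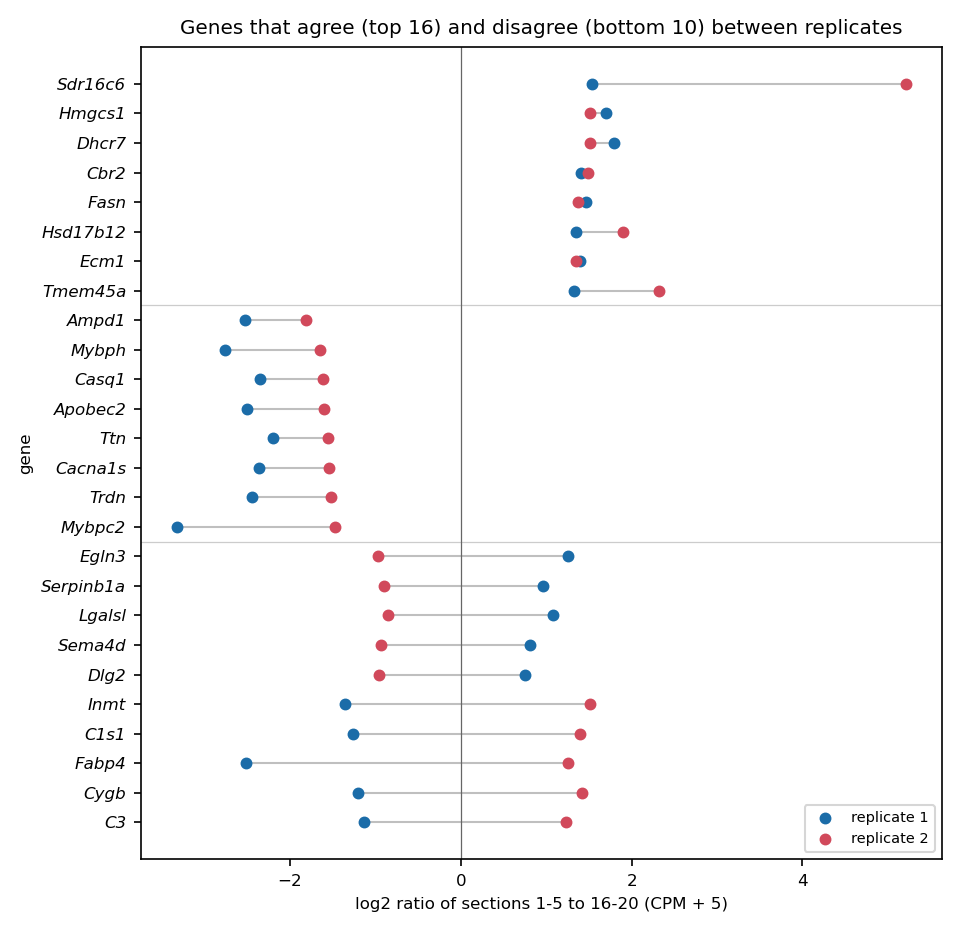
Log2 ratio of sections 1 to 5 to sections 16 to 20 in replicate 1 (blue) and replicate 2 (red) for the 16 genes with the largest matching ratios and the 10 with the largest opposite ratios. Hmgcs1, Cbr2, Fasn and Ecm1 have nearly the same value in both samples. Sdr16c6 and Fabp4 differ widely between them.

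Skeletal muscle genes made up the clearest group with lower levels in sections 1 to 5. Muscle fibres contract by sliding myosin thick filaments along actin thin filaments, on a calcium signal released from the sarcoplasmic reticulum. Of the calcium and metabolism list, 24 of 24 genes were below 0 in both samples, with median log2 ratios of -2.44 and -1.004. Of the filament list, 27 of 31 were below 0 in replicate 1 (median -2.29) and 25 of 31 in replicate 2 (median -0.64). The zones were thus further apart in replicate 1. The mitochondrial share of UMIs was highest in section 20 of each block. Sections 1 to 5 and 16 to 20 averaged 30490 and 84400 CPM of mitochondrial transcripts in replicate 1, and 62410 and 63770 in replicate 2. Of the 14 mitochondrial genes, 5 came near the UMI ceiling, so these CPM also follow section depth. In RPM, replicate 1 had 28420 to 70780 in sections 1 to 5, 152900 in section 15, 112100 to 142200 in sections 16 to 20 and 135200 in section 20. Replicate 2 had 152500 to 170000 RPM in sections 1 to 5 and 216400 to 260400 in sections 16 to 20, so in this unit it was higher at the far end too. The part of mitochondrial transcripts in the wider gap of replicate 1 was not tested. In a bulk section, fewer cells of a type and less RNA per cell cannot be told apart.

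Actn3, the alpha-actinin of fast fibres (chr19:4861216-4877909), fell by 2.71 ± 0.41 (log2, SE; edgeR adjusted p = 0.0485) and was the gene of these 2 lists that passed the test. Its levels differed between the samples. Replicate 1 had 3.23, 0, 1.10, 0 and 0 CPM in sections 1 to 5 and 29.6, 40.1, 19.96, 0 and 20.1 CPM in sections 16 to 20. Replicate 2 had 134, 138, 131.5, 211 and 197 CPM in sections 1 to 5 and 556, 878, 892, 752 and 718 CPM in sections 16 to 20. The zones overlapped in replicate 1, where the shallow section 19 had 0 CPM, and did not overlap in replicate 2. Mylk2, the myosin light chain kinase of skeletal muscle, fell by 2.82 ± 0.42 (edgeR adjusted p = 0.0485). Other genes past the test in this direction included Art5, an ADP-ribosyltransferase, Atp1b2, a subunit of the sodium pump, Neu2, a sialidase, and Vldlr, a lipoprotein receptor, named here after their values were seen.

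The 8 genes that the rule named as lower in sections 1 to 5 were Ampd1, Mybph, Casq1, Apobec2, Ttn, Cacna1s, Trdn and Mybpc2, and none passed the test, with adjusted p-values of 0.0549 to 0.102. Ampd1, the AMP deaminase of muscle, averaged 7.33 CPM in sections 1 to 5 and 65.8 CPM in sections 16 to 20 of replicate 1. In replicate 2 the means were 90.3 and 330.2 CPM and the sections of the 2 zones did not overlap (68.5 to 117 against 287 to 359). Casq1, the calcium store protein of fast fibres, averaged 48.9 and 270 CPM in replicate 1 and 426 and 1310 in replicate 2. Ttn, the giant spring protein titin, averaged 232 and 1080 CPM in replicate 1 and 933 and 2742 in replicate 2. Ckm, the muscle creatine kinase, averaged 569 and 6306 CPM in replicate 1 and 5277 and 7652 CPM in replicate 2. It came near the UMI ceiling, and in RPM its log2 ratios were -4.07 and -0.64.

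The promoters of this group are shown for the motifs of muscle genes. The letters CAGCTG, an E-box of the kind bound by MyoD family factors, stood in the promoters of Mybph, Cacna1s, Casq1 and Apobec2, 4 of the 6 genes with an entry, against 18.3% of all 27025 genes. The core of the MEF2 motif, CTA and TAG with 4 bases between them, stood in that of Ttn and in 4.23% of all genes. Both strands were searched and capitals mark the motif named.
Casq1, chr1:172219896-172220145, minus strand: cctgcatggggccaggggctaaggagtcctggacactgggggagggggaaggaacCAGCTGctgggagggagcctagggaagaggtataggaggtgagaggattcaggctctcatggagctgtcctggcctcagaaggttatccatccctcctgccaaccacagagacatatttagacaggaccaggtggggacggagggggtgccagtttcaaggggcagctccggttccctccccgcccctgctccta
Ttn, chr2:76982548-76982797, minus strand: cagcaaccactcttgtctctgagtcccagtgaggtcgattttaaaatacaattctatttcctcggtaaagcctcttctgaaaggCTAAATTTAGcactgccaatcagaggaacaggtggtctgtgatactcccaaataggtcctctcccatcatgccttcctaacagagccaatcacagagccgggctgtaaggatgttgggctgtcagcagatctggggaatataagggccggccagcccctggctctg

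Keratinocyte genes were mostly higher in sections 1 to 5 of both samples, from very different levels. Of the basal keratinocyte list, 17 of 20 genes were above 0 in replicate 1 and 15 of 20 in replicate 2, with median log2 ratios of 0.50 and 0.52, and none passed the test. Over all measured genes 5499 and 5425 of 8817 were above 0, with medians of 0.25 and 0.14. Krt14 averaged 2547 and 1590 CPM in the 2 zones of replicate 1 and 244 and 22.3 CPM in replicate 2. Krt5 averaged 2691 and 1959 CPM, and 117 and 11.8 CPM. Desmosome genes, which join keratinocytes, had medians of 0.90 and 0.62, with Pkp1, a plakophilin of the upper layers, at 0.50 and 2.61. In replicate 2 the basal list summed to 2334 CPM in section 1 and 1297 in section 20, beside 3550 and 79.8 CPM for the hair and sebaceous list. The part of hair and skin cells in these keratinocyte values was not tested.

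Of the oral suprabasal list 1 of 20 genes passed, where 0.171% of all tested genes rose. Krt1 rose by 3.45 ± 0.38 (edgeR adjusted p = 0.0408), which rested on replicate 1 with 1919 UMIs in sections 1 to 5 and 46 in sections 16 to 20, since replicate 2 had 2 and 0. The abundant keratins depended on the unit. Krt13 had a log2 ratio of -0.90 in CPM and 0.61 in RPM in replicate 1, and Krt4 of -1.31 and 0.83. Krt6a, a keratin of activated and lining epithelium, had 0.11 and 0.59. Lor and Sprr3 of the cornified envelope had -0.20 and 0.00 in CPM and 1.02 and 1.47 in reads. The UMI ceiling and the shallow sections 4, 19 and 20 move with this difference, as the plot of Krt13 in both units shows. Of the 35 cornified envelope genes in the files, 33 were above 0 in replicate 1 and 18 in replicate 2, and 5 had no UMI in replicate 2. Their median log2 ratios were 1.10 and 0.09. Over all 26492 entries, 12564 and 12597 were above 0, so the share in replicate 2 was near that of all entries. Among the 11 measured genes of the list, 9 were above 0 in each sample, with medians of 1.21 and 1.32.

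Of 16 tested hair follicle and sebaceous genes 3 passed, Krt73, Dlx3 and Msx2, where 0.171% of all tested genes rose. The list as a whole was higher in sections 1 to 5 of replicate 2 only. Of its 21 genes in the files, 10 were above 0 and 7 below in replicate 1 (median log2 ratio 0). In replicate 2, 20 were above 0 (median 2.66). Over all 26492 entries, 12564 and 12597 were above 0 in replicates 1 and 2, with medians of 0. Dlx3, a homeobox factor of hair and upper epidermal layers, had 53.3, 50.8, 36.2, 44.8 and 60.4 CPM in sections 1 to 5 of replicate 1 and 5.92, 6.68, 0, 0 and 0 CPM in sections 16 to 20. Replicate 2 had 46.6, 32.3, 31.0, 20.99 and 2.06 CPM in sections 1 to 5 and no UMI in sections 16 to 20, so that sections 1 to 5 were at least 15.7-fold higher by pooled UMIs. Msx2, another homeobox factor, averaged 29.7 and 7.92 CPM in replicate 1 and 16.6 and 0 CPM in replicate 2. Both rose by edgeR's test (adjusted p = 0.0408 for Dlx3 and 0.0485 for Msx2). Of the 19 keratinocyte transcription factors listed, none passed. Pitx1, a factor of the oral ectoderm and of the hindlimb, had log2 ratios of 0.84 and 0.88 and Klf4, a factor of late differentiation, 0.94 and 1.00.

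**Figure D5:**
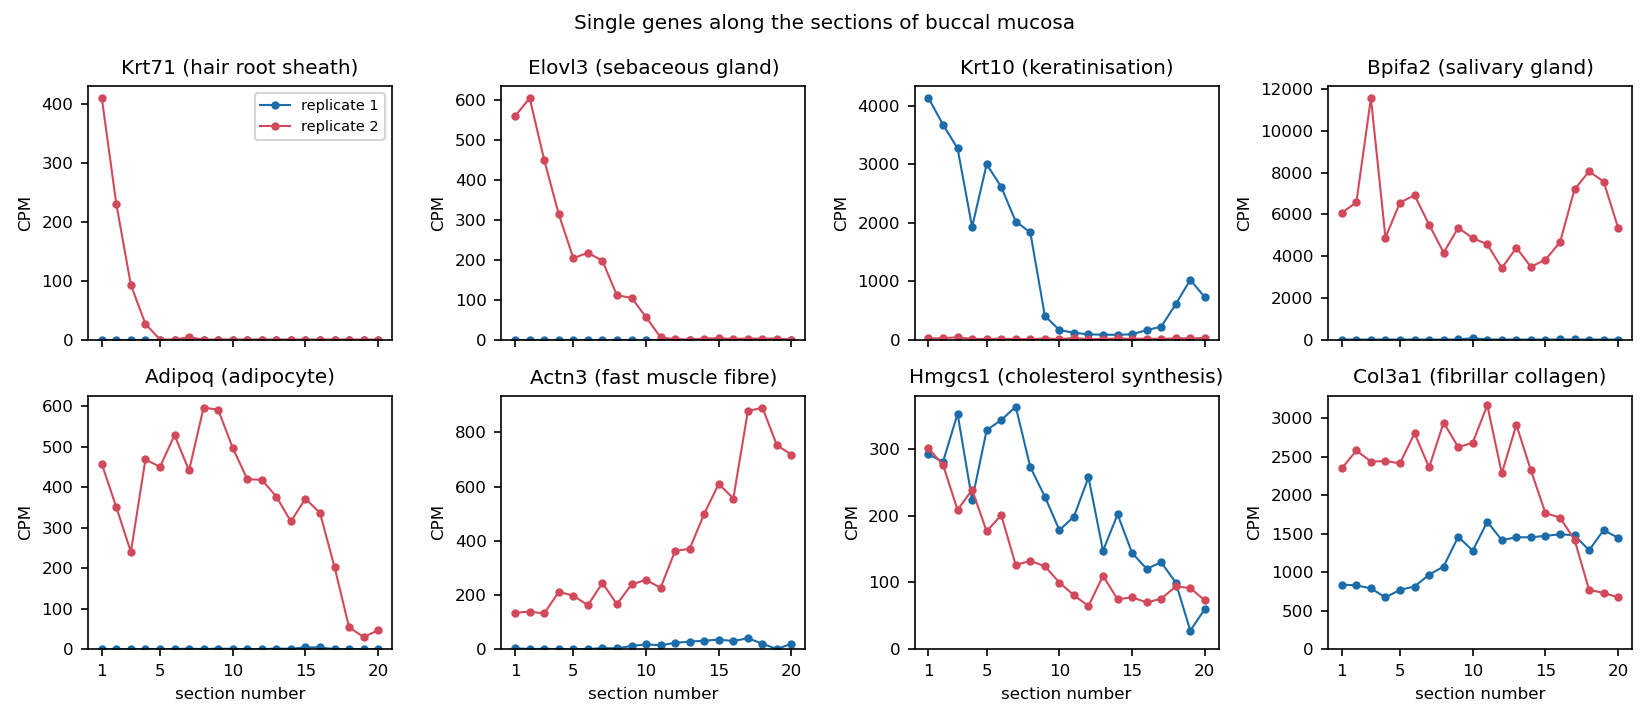
CPM of 8 genes against section number in replicate 1 (blue) and replicate 2 (red), on linear axes that start at 0. Krt10 of replicate 1 and Bpifa2 of replicate 2 reached 3874 and 3490 UMIs in a section, near the UMI ceiling, so their CPM also follows section depth. Hmgcs1 goes down along the block in both samples. Krt71 and Elovl3 are seen in the first sections of replicate 2, Krt10 of replicate 1 is high in the first 8 sections and at 605 to 1022 CPM in the last 3, and Col3a1 goes opposite ways.

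Connective tissue genes did not agree. Of the 34 genes of the fibroblast and fibrillar matrix list, 8 were above 0 in replicate 1 (median -0.38) and 34 in replicate 2 (median 0.93). Col3a1, a fibrillar collagen of loose connective tissue, went from 779 CPM in sections 1 to 5 to 1449 in sections 16 to 20 of replicate 1, with ranges of 671 to 838 and 1284 to 1547. In replicate 2 it went from 2445 to 1060 CPM, with ranges of 2347 to 2581 and 672 to 1708. The zones of each sample did not overlap, in opposite order. The edgeR value was -0.06 ± 0.40 (adjusted p = 0.955). The list's summed level was highest in the middle, at section 11, in both samples, with 9590 CPM in replicate 1 and 16450 in replicate 2. Sfrp2, a secreted Wnt modulator made by fibroblasts, was the 1 gene of the list past the test, rising by 1.74 ± 0.27 (edgeR adjusted p = 0.0485), with log2 ratios of 1.86 and 1.43.

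Adipocyte genes went opposite ways too, with medians of -0.46 in replicate 1 and 0.92 in replicate 2 over 22 genes. Fabp4, the fatty acid carrier of fat cells and capillaries (chr3:10204088-10208576), averaged 22.4 CPM in sections 1 to 5 and 152 in sections 16 to 20 of replicate 1, and 1293 and 539 CPM in replicate 2. Its sections reached 2038 CPM in section 8 of replicate 2 and 219.5 in section 20. Cfd, the adipocyte protease adipsin, had 43 UMIs in replicate 1 and 13701 in replicate 2, so its ratios of -1.95 and 1.23 compare a trace with an abundant transcript. Haemoglobin transcripts of red blood cells went the same 2 ways. Hbb-bs averaged 192 and 914 CPM in replicate 1 and 1792 and 1015 in replicate 2.

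Vessel genes were mostly lower in sections 1 to 5 of replicate 1 and near 0 in replicate 2. Of the 20 endothelial genes 1 was above 0 in replicate 1 (median -0.73) and 14 in replicate 2 (median 0.12). Of 17 smooth muscle and pericyte genes 2 and 11 were above 0, with medians of -1.44 and 0.34. Acta2, the smooth muscle actin, averaged 55.2 and 408 CPM in replicate 1 and 833 and 605 in replicate 2. Macrophage and antigen presentation genes had medians of 0.06 and 0.98 over 20 genes. H2-Aa, a class II antigen presentation chain, averaged 385 and 253 CPM in replicate 1 and 393 and 104 in replicate 2. Myelin genes of Schwann cells had medians of -0.45 and -0.04. No gene of the endothelial, smooth muscle, macrophage and Schwann cell lists passed edgeR's test.

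At least 2-fold opposite ratios were found for 26 genes (0.295%). Of these, 25 (0.284%) were higher in sections 1 to 5 of replicate 2 and 1 (0.0113%) in those of replicate 1. By the rule for names, which orders by the smaller of the 2 ratios, Inmt led this direction. Inmt, a methyltransferase, averaged 102 and 270 CPM in replicate 1 and 319 and 108 in replicate 2. C1s1 and C3 of the complement system, Cygb, a globin of fibroblasts, and Fabp4 followed, with ratios of -2.52 to -1.14 in replicate 1 and 1.23 to 1.42 in replicate 2. In the other direction the 5 genes that the rule named were under 2-fold in replicate 2. Egln3, an oxygen-sensing prolyl hydroxylase, averaged 352 and 144 CPM in replicate 1 and 63.2 and 129 CPM in replicate 2. Serpinb1a, a protease inhibitor, Lgalsl, Sema4d, a semaphorin, and Dlg2, a scaffold protein, followed with 0.75 to 1.08 and -0.96 to -0.85. The sections of Egln3 overlapped between the zones of replicate 1, where section 4 had 89.5 CPM and section 16 had 241. None of the 10 passed edgeR's test.

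Another pattern was a higher level in sections 6 to 15 than at either end. The 4 genes named for it were Abca8a, a lipid transporter, Antxr1, an anthrax toxin receptor that binds collagen, Ly6a, a marker of fibroblasts and vessels, and Cd47, a signal against phagocytosis. Abca8a averaged 35.5, 84.8 and 61.7 CPM in sections 1 to 5, 6 to 15 and 16 to 20 of replicate 1 and 103, 134 and 56.9 in replicate 2. Ly6a averaged 283, 357 and 265 CPM, and 370.5, 472 and 262. The excess over the higher end was less than 2-fold for each.

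Among signalling genes, 1 of 36 tested Wnt pathway genes passed, the Sfrp2 named above, where 0.171% of all tested genes rose. Wnt4, a ligand made by keratinocytes, averaged 433 and 204 CPM in replicate 1 and 21.4 and 31.8 in replicate 2. No gene of the Notch list (16 tested), the BMP and TGF-beta list (34) or the EGF and FGF list (27) passed. Id1, a target of BMP signalling, had log2 ratios of 0.65 and 0.93 and Hes1, a target of Notch, 0.63 in both samples. Defb1, an antimicrobial peptide of epithelia, rose by 1.71 ± 0.27 (edgeR adjusted p = 0.0485), and its value rested on replicate 1, with 2464 UMIs against 13.

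The same zone difference was compared between buccal mucosa and the other sites. No gene passed for the difference from the mean of the other 3 sites or from ventral tongue, the other lining mucosa, by edgeR (0% each). Unadjusted p-values under 0.05 were given to 1094 genes (6.92%) and 967 genes (6.12%), and DESeq2 called 19 and 7 genes. For Hmgcs1 the log2 ratios were 1.70 and 1.51 in buccal mucosa, 1.02 and 0.39 in ventral tongue, -0.01 and 0.00 in dorsal tongue and -0.02 and -0.03 in hard palate. The difference from the mean of the other sites was 1.00 (edgeR adjusted p = 0.388). For Krt1 the ratios were 2.76 and 0.48 in buccal mucosa and -0.11 to 0.67 in the other 6 samples, with a difference of 2.86 (adjusted p = 0.188, edgeR). For Dlx3 they were 2.85 and 2.66 against 0.31 to 1.02, with a difference of 3.35 (adjusted p = 0.188, edgeR). For Fabp4 they were -2.52 and 1.25, against -3.52 to -1.64 elsewhere, so that replicate 2 was the 1 sample of the 8 with a positive value. Zone positions along the block need not match between sites.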

How the data were processed

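Tomo-seq libraries (CEL-seq2) of 2 buccal mucosa samples were analysed, with 6 samples of 3 other sites for the test. The authors deposited raw UMI counts per gene and section, with tables of read counts and of estimated counts of transcripts (expected counts corrected for UMI collisions). Trim Galore 0.6.10, STAR 2.7.9a and GRCm38 are named per the submitters' processing notes, while none of these sources names the counting program. Sections under 10000 UMIs were left out and counts were scaled to CPM per section. Sections 1 to 5 were compared with 16 to 20 as log2 ratios with 5 CPM added, and each gene was correlated with section number (Spearman). Counts summed over the zones of the 8 samples (16 sums) were fitted with a sample term and a zone effect per site in edgeR 4.0.16 (R 4.3.3, TMM, quasi-likelihood F-test, Benjamini-Hochberg adjustment, 4 residual degrees of freedom). Estimated counts were rounded for their alternative. The fit was also run on simulated counts with the same spread for every gene. Tissue differences between samples were not simulated, so that run gives no error rate for these data. DESeq2 1.42.0, other scalings, filters, zones and units, a replicate block and samples left out were the alternatives.

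Named genes were single genes at 50 CPM or more in the higher zone of both samples: the 8 largest and 8 smallest ratios that matched in both with a rho of at least 0.5 in size, the 5 largest opposite ratios in each direction, the 4 highest in the middle, and from each list the 3 most abundant genes and those past the test. The genes and lists were chosen with earlier results of these data known. Of the 26492 entries, 315 combine several genes that share reads and are uncertain. Further genes were named after their values were seen. Total UMIs limit the precision, and limits from a count of 0 use 3 UMIs and cover counting error only. Some genes are not reported here.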

Additional observations from a re-analysis of the deposited data

Results flagged for a closer look

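Msx2, a homeobox factor, had zone differences of opposite sign in buccal mucosa and ventral tongue. The mean log2 ratio of sections 1 to 5 to sections 16 to 20 was 1.77 in buccal mucosa (1.43 and 2.11) and -0.51 in ventral tongue (-0.26 and -0.77). Each buccal sample was above 0 and each ventral tongue sample below 0. The buccal values rest on few UMIs, 98 and 4 in the 2 zones of replicate 1 and 27 and 0 in those of replicate 2. The fitted difference did not pass edgeR's test (adjusted p = 0.195).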

How the results depend on the processing

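The 27 genes higher and 15 lower in sections 1 to 5 became 392 and 598 with DESeq2, 53 and 70 with RLE factors, 269 and 72 without TMM, 158 and 104 on read counts, 5 and 1 on estimated transcripts, 1 and 0 without mitochondrial genes, 837 and 1025 without the low count filter, 362 and 775 for sections 1 to 10 against 11 to 20, 65 and 41 for 1 to 3 against 18 to 20, and 0 and 0 from the 2 buccal samples alone (1577 at an unadjusted p under 0.05). With a replicate block they became 60 and 187, and without the sample term 0 and 0. Over genes, the deviations of zone ratios from their site mean had correlations of -0.24 to 0.30 between same-numbered samples. Such values alone cannot tell whether same-numbered samples came from the same mouse. Xist had 4 UMIs in hard palate replicate 1, against 2801, 4190 and 2360 in replicates 1 of buccal mucosa, dorsal tongue and ventral tongue. The replicate block thus joined samples with opposite sex-linked transcripts, which cannot come from 1 mouse. With one sample left out the counts ran from 0 to 490 higher and 0 to 803 lower. DESeq2 shared 25 of the 27 and all 15. For the differences between sites the count of 0 became 19 (mean of other sites) and 7 (ventral tongue) with DESeq2, 306 and 117 without the filter, 12 and 4 for sections 1 to 10 against 11 to 20, 9 for 1 to 3 against 18 to 20 (mean of other sites), and 0 to 94 and 0 to 27 with one sample left out.

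The 130 genes 2-fold higher in both samples became 36 at a minimum of 50 CPM, 221 and 34 with 1 and 20 CPM added, 14 for sections 1 to 10 against 11 to 20, 334 for 1 to 3 against 18 to 20 and 666 at 1.5-fold. The 155 lower became 84, 70 with 20 CPM added, 32 and 439 in the same order, 72 on estimated transcripts and 65 on reads. The 26 opposite became 7, 60 and 3, 2, 81 and 226, and 55 on reads. Trends down in both (584) became 1000 on estimated transcripts, 327 at 50 CPM and 108 at a rho of 0.7. Trends up (454) became 125 at 0.7. Opposite trends (95) became 58 at 50 CPM, 159 on reads, 5 at 0.7 and 159 without sections under 100000 UMIs, a setting chosen after seeing the data. Fa2h (4.15) changed sign without buccal replicate 2 (-1.89) and was at 4.42 without replicate 1. The cause of these shifts was not tested. Of 2985 fitted values over 136 results, 2462 kept direction and side of the threshold. That count includes results that did not pass in the main fit and still did not pass. Among results that had passed, 131 values no longer did and 1 changed sign. The named genes that had passed stayed past the threshold in 10 (Sfrp2, Fa2h) to 15 (Dlx3, Acat2) of 22 settings, and Krt73 in 12 of 21. Depth limits sections 4, 19 and 20 of replicate 1.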

Other observations

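Gland transcripts of replicate 1 were concentrated in single sections. Section 10 held 3751 of 4014 UMIs of Mucl2, a mucin-like secreted protein, 1759 of 1793 of Scgb1b27 and 1708 of 1761 of Scgb2b27, both secretoglobins. It also held 691 of 699 UMIs of Car6, a carbonic anhydrase secreted by salivary glands, and 216 of 218 of Pip. Section 17 held 63 of 64 UMIs of Bpifb2 and 57 of 60 of Tff2, a trefoil peptide of mucous cells. In replicate 2, section 1 held 46 of the 61 UMIs of Krt35, a hair keratin.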
